A study of Homo sapiens with 12 samples.

Results

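The genes described here are 6 genes of DNA mismatch repair, MSH6, MSH3, PMS2, PMS1, MLH3 and EXO1, taken by name from the 57134 genes of one table of estimated counts, in which all 6 of 6 are listed. The table covers 12 MATQ-seq libraries of HCT116, an established human colorectal carcinoma line. MATQ-seq is a method that copies total RNA, including RNA without a poly(A) tail, from very small inputs. The study asked how well ribosomal RNA (rRNA) is removed from such libraries by scDASH, a Cas9-based depletion, and whether other transcripts are kept. The groups were 2 DASHed mini-bulk libraries, 2 untreated mini-bulk libraries, 4 DASHed single cells and 4 untreated single cells. All 4 groups share the line and the library method, cells were sorted by FACS, and no genotype, drug or time point differs between them. Since no culture is named for any library, p-values here measure only the spread between libraries, which may be technical, and the number of cells in a mini-bulk library is not given in the sources used here.

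Mismatch repair corrects wrongly paired bases and small loops left behind by DNA polymerases. MutS dimers that hold MSH6 recognise single mismatches and short loops, and those that hold MSH3 recognise larger loops. MutL dimers are then recruited, of which those with PMS2 carry the nicking activity, and the exonuclease EXO1 removes the faulty strand before it is filled in again. HCT116 is known for defective mismatch repair, and tumours of this kind collect insertions and deletions in runs of 1 repeated base, including runs inside the coding sequences of repair genes themselves.

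These runs are shown first because they are the part of each gene that mismatch repair itself is known to guard. The coding sequence of the longest-coding transcript of each gene (GENCODE v29, GRCh38) was searched for its longest run of 1 base. The lines below give that run in capitals with 11 bases on each side in lower case, on the coding strand. Positions are those of the whole printed stretch, the run together with its flanking bases. The stretch lies at chr2:47803490-47803519 (plus strand, exon 5 of 10) for MSH6 and at chr5:80675085-80675114 (plus strand, exon 7 of 24) for MSH3. It lies at chr7:5987515-5987544 (minus strand, exon 11 of 15) for PMS2 and at chr2:189818073-189818101 (plus strand, exon 5 of 13) for PMS1. For MLH3 it lies at chr14:75047890-75047920 (minus strand, exon 2 of 13).
MSH6: gccggaagataCCCCCCCCttcttagagct
MSH3: atgttagggacAAAAAAAAgggcaacattt
PMS2: gactggagaagAAAAAAAAgacgtgtccat
PMS1: tactcaactgcAAAAAAAtgtaaagatga
MLH3: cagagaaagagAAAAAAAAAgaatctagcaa
The run of MLH3 is 9 bases long, those of MSH6, MSH3 and PMS2 are 8 bases and that of PMS1 is 7. The run of MSH6 is made of C and the other 4 are made of A. In EXO1 the longest runs have 7 bases. The stretch made of the first of them and 11 flanking bases on each side spans an exon junction. Whether the junction lies within the run or in its flanking bases was not tested. All runs given here are from reference sequences, and the deposited counts say nothing of the length of the runs in HCT116 itself.

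PMS2 has many partial copies in the genome, so its counts rest on words of sequence that separate it from them. kallisto assigns reads by words of 31 bases, and 34.4% of the words of the PMS2 transcripts also occur in other genes, with PMS2CL holding 26.0%. Within the coding sequence, 939 of 2556 words (36.7%) are shared with PMS2CL and 1344 (52.6%) occur in PMS2 transcripts alone. One word of each kind is given below, the first from exon 12 (chr7:5982880-5982910, minus strand) and the second from exon 7 (chr7:5997378-5997408, minus strand), all in lower case.
PMS2 and PMS2CL: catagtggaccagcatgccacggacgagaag
PMS2 alone: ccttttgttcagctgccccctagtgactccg
Reads from the first word can be split between both genes, so the counts of PMS2 and of its copies are uncertain. MSH6 is uncertain too, since 16.2% of its exonic bases overlap FBXO11 on the other strand and 17.6% of its words are shared. PMS1 shares 1.89% of its exonic bases with ORMDL1, and MLH3 and EXO1 share none.

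Depth and rRNA differed between treatments throughout. Total counts were 837614 to 1087711 in DASHed and 5803180 to 6026584 in untreated mini-bulk, and 1018874 to 1573651 in DASHed and 5545355 to 6008358 in untreated single cells. rRNA genes took 38.0 to 42.7% of the counts in DASHed and 82.2 to 85.8% in untreated mini-bulk, and 29.9 to 38.4% in DASHed and 72.9 to 81.3% in untreated single cells. Levels below are therefore given as CPM outside rRNA, that is, counts scaled to a common total of counts that are not rRNA. There were 519157 to 623189 such counts in DASHed and 854974 to 1035731 in untreated mini-bulk, and 714573 to 1070836 in DASHed and 1077290 to 1505387 in untreated single cells. A gene with no count may still have had up to 3 counts, which is 4.81 to 5.78 CPM outside rRNA in DASHed and 2.90 to 3.51 in untreated mini-bulk, and 2.80 to 4.20 in DASHed and 1.99 to 2.78 in untreated single cells. These floors, and all intervals, cover counting error only. The 7 epithelial markers summed to 2327 to 2412 CPM outside rRNA in DASHed and 1186 to 1195 in untreated mini-bulk, and to 1622 to 6044 in DASHed and 1212 to 4111 in untreated cells. Not all of them were seen: VIL1 had at most 1 count in any library. CDH1 had 0, 0, 1 and 2.8 counts in DASHed cells 1 to 4, against 1, 2, 4 and 21.1 in untreated ones. The 9 markers of other cell types summed to 28.9 to 53.2 in DASHed and 32.4 to 34.4 in untreated mini-bulk. In cells they summed to 0 to 28.02 in DASHed and 4.30 to 25.6 in untreated. CD3E, CD79A, LYZ, COL3A1 and HBB were at 0 in every library. COL1A1 had 29 and 11 counts in DASHed and 17 and 20 in untreated mini-bulk. In cell 3 it had 29 counts in DASHed and 23.8 in untreated, and at most 1.2 in any other cell.

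The 6 genes were rare transcripts in all groups. Their summed level was 61.8 and 64.6 CPM outside rRNA in the DASHed mini-bulk libraries, against 137.7 and 181.0 in the untreated ones. The mean was 63.2 ± 1.98 in DASHed and 159 ± 30.6 in untreated mini-bulk (SD, n = 2 each), a ratio of 0.397, and the groups did not overlap. An exact permutation test, two-sided, gave p = 0.333, which no design of 2 against 2 libraries can go below. As a share of all counts, rRNA included, the order turned round, with 37.7 ± 3.28 CPM in DASHed and 25.9 ± 9.03 in untreated mini-bulk (SD, n = 2 each), a ratio of 1.46 with the same exact p of 0.333. The direction of the summed level thus depended on whether rRNA was counted.

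**Figure D1:**
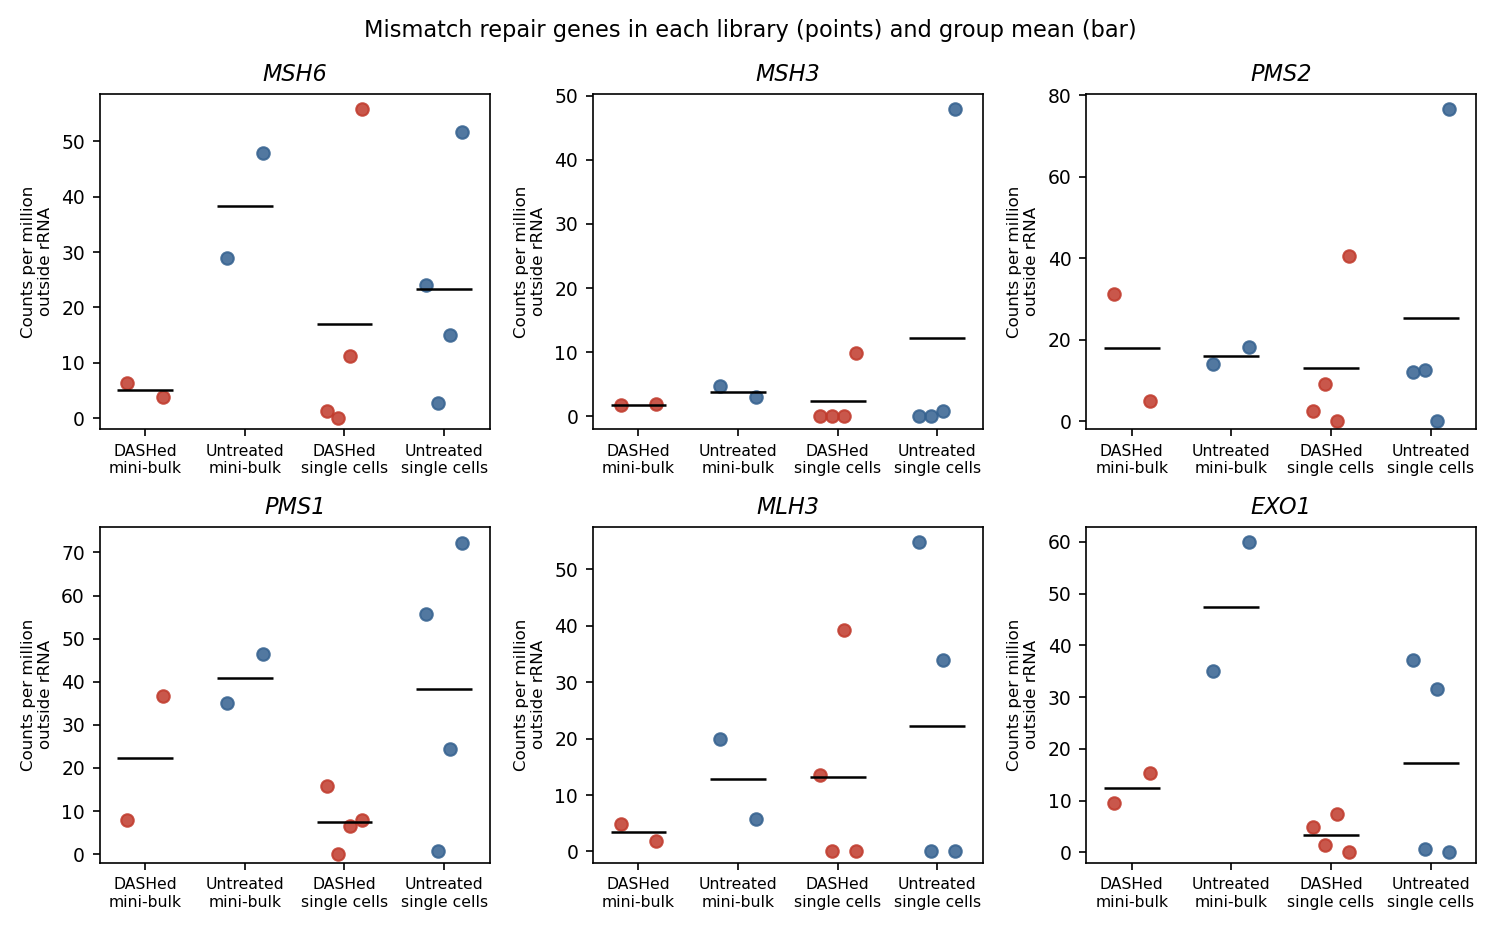
Level of each mismatch repair gene in CPM outside rRNA (vertical axis) in the 4 groups (horizontal axis). Each point is 1 library, red for DASHed and blue for untreated, and each bar is the group mean; the DASHed mini-bulk points of MSH6 and EXO1 lie below both untreated ones, while those of PMS2 lie on either side of them.

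In mini-bulk, MSH6 and EXO1 fell in DASHed libraries relative to the other genes, and no member rose. The fit covered 10083 genes, of which 19.8% were called lower and 9.9% higher at an adjusted p under 0.05 (edgeR quasi-likelihood test, TMM scaling). Of the 6 members, 4 passed the filter on low counts and 2 of these 4 were called lower, against that background of 19.8%. The median log2 fold change was -1.53 over the 4 members tested and 0.03 over all tested genes. Scaled to total counts alone, which moved the median of all genes to a log2 fold change of 2.04, neither gene was called (MSH6 -1.02, adjusted p = 0.244; EXO1 -0.07, adjusted p = 0.931; edgeR), so both falls are relative to the other genes outside rRNA. In a mini-bulk library, fewer cells with a transcript and less of it per cell cannot be told apart.

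MSH6, the MutS subunit for single mismatches, had 6.42 and 3.85 CPM outside rRNA in the DASHed mini-bulk libraries, against 28.9 and 47.8 in the untreated ones. These levels rest on 4 and 2 counts in DASHed and on 24.7 and 49.5 in untreated libraries. Both DASHed libraries were low and the groups did not overlap. The log2 fold change was -2.97 (SE 0.64, adjusted p = 0.00919, edgeR quasi-likelihood test), and the ratio of summed counts outside rRNA was 0.134 (95% counting interval 0.0477 to 0.306). Without an untreated library MSH6 no longer passed the filter and had no test.

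MSH3, the subunit for larger loops, had the fewest mini-bulk counts of the 6 and did not pass the filter on low counts. It had 1.09 and 1 counts in the DASHed mini-bulk libraries, against 4.03 and 3.09 in the untreated ones. All 4 values are at or near the floor of 3 counts. In CPM outside rRNA this was 1.75 and 1.93 in DASHed and 4.71 and 2.98 in untreated libraries, and the ratio was 0.473 with a counting interval of 0.0479 to 2.48. A difference was not detectable at this depth.

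PMS2, the MutL subunit with the nicking activity, had 31.2 and 4.91 CPM outside rRNA in the DASHed mini-bulk libraries, against 13.9 and 18.2 in the untreated ones. DASHed library 1 was the highest of the 4 and DASHed library 2 the lowest, so the groups overlapped. The log2 fold change was 0.07 (SE 0.73, adjusted p = 0.946, edgeR). Scaled to total counts alone, PMS2 stood at 2.05 with an adjusted p of 0.0197 (edgeR), where 66.6% of all tested genes were called higher, next to the median of all genes on that scale.

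PMS1, a MutL subunit whose role in repair is less clear, had 8.02 and 36.6 CPM outside rRNA in the DASHed mini-bulk libraries, against 35.2 and 46.3 in the untreated ones. DASHed library 1 was low, DASHed library 2 lay within the untreated range, and the groups overlapped. The log2 fold change was -1.02 (SE 0.62, adjusted p = 0.233, edgeR). It was -0.13 without DASHed library 1 and -2.33 without DASHed library 2. Without untreated library 1 it was -1.33, and without untreated library 2 it was -0.99. Scaled to total counts alone it was 0.996 (adjusted p = 0.186, edgeR), which is below the median of all genes on that scale.

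MLH3, a MutL subunit best known from meiotic recombination, had 3 and 1 counts in the DASHed mini-bulk libraries, against 17 and 6 in the untreated ones. In CPM outside rRNA these were 4.81 and 1.93 in DASHed and 19.9 and 5.79 in untreated libraries, and the groups did not overlap. The ratio of summed counts outside rRNA was 0.288 (counting interval 0.0724 to 0.842). MLH3 did not pass the filter, and without the filter its log2 fold change was -1.89 (SE 1.02, adjusted p = 0.267, edgeR).

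EXO1, the exonuclease, had 9.63 and 15.4 CPM outside rRNA in the DASHed mini-bulk libraries, against 35.1 and 59.9 in the untreated ones. Its counts were 6 and 8 in DASHed and 30 and 62 in untreated libraries, with both DASHed libraries low and no overlap. The log2 fold change was -2.05 (SE 0.53, adjusted p = 0.0199, edgeR), and the ratio outside rRNA was 0.252 (counting interval 0.133 to 0.444). The call was lost without DASHed library 1 (adjusted p = 0.0591), without untreated library 2 (adjusted p = 0.221) and with DESeq2 (adjusted p = 0.0527).

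Fold changes moved with the GC content of the transcripts across the whole table, and the members sit on its AT-rich side. Among the 1601 tested genes within 2 percentage points of the GC content of EXO1 (44.5%), the median log2 fold change was -1.27, 43.2% were called lower, and 21.1% lay below EXO1. Among the 1526 genes near MSH6 (47.2%) the median was -0.72, 26.8% were called lower, and 1.51% lay below MSH6. MSH6 thus lay far down among genes of like GC content, while EXO1 lay nearer their middle. Among the 525 genes near PMS1 (37.5%) the median was -2.11 and 84.8% lay below PMS1, and among the 1551 near PMS2 (46.2%) the median was -0.93 and 86.5% lay below PMS2. With an offset for GC content 3.25% of all tested genes and none of the 4 members were called by edgeR, so the count of members is near that background. The 4 members then had log2 fold changes of -2.26 (adjusted p = 0.109) for MSH6, -0.82 (0.553) for EXO1, 1.18 (0.436) for PMS1 and 0.99 (0.615) for PMS2. At an unadjusted p under 0.05 that fit had 1581 of the 10083 tested genes, MSH6 among them (unadjusted p = 0.00638, edgeR). PMS1 (0.0969), EXO1 (0.164) and PMS2 (0.210) were not among them.

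**Figure D2:**
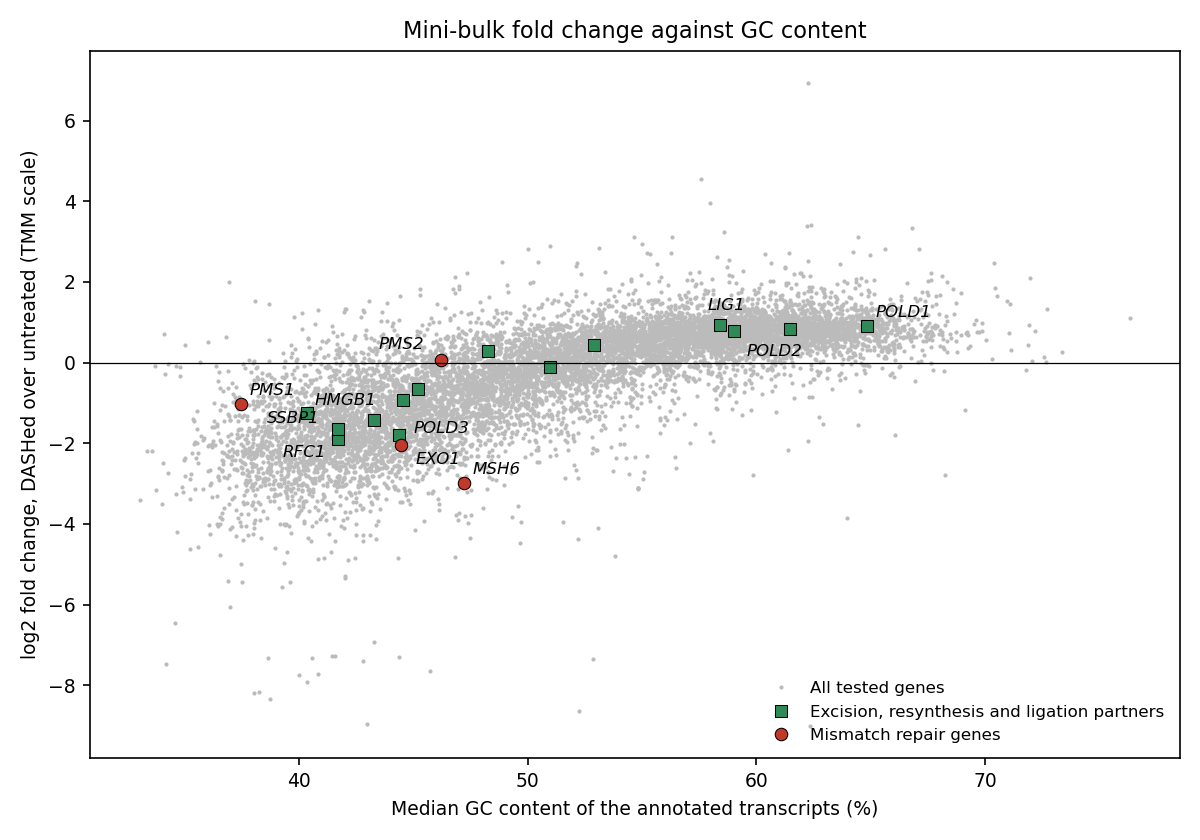
Mini-bulk log2 fold change, DASHed over untreated, on the TMM scale (vertical axis) against the median GC content of each gene's annotated transcripts in percent (horizontal axis) for the tested genes. MSH6 at -2.97 stands below the cloud at its GC content, EXO1 at -2.05 and the called partners follow the cloud, and PMS1 and PMS2 lie in its upper part.

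In the single cells, levels are a description without a test, because each library is 1 cell and no culture is named. Of the 13469 genes with at least 20 summed counts, 23.7% had a DASHed over untreated log2 ratio below -1 relative to the median gene and 12.6% had one above 1. Of the 6 members, 3 were below -1 (PMS1 at -1.67, EXO1 at -1.56 and MSH3 at -1.49), against that background of 23.7%, and 0 were above 1, against 12.6%. The other 3 were MSH6 at 0.08, MLH3 at -0.16 and PMS2 at -0.51, and the members' median was -0.997. Taken as the mean log2 ratio over same-numbered cells, 1 of the 6 members was below -1 (PMS1, at -1.06), against a background of 11.5% on that measure, with EXO1 at -0.71 and MSH3 at -0.80. On that measure 2397 of all genes lay above 1 and 1549 below -1, the opposite balance to that of the summed counts.

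The summed level of the 6 genes was 37.9, 10.5, 64.4 and 114.0 CPM outside rRNA in DASHed cells 1 to 4, against 183.7, 16.6, 105.8 and 248.6 in untreated cells 1 to 4. Each DASHed cell was below the untreated cell of its number, cell 2 was lowest and cell 4 highest in both treatments, and the ranges of the groups overlapped. Pooled over cells the level was 61.7 (exact 95% binomial interval 53.8 to 70.3) in DASHed and 130.5 (120.7 to 140.8) in untreated cells, a ratio of 0.473 (0.404 to 0.551). As a share of all counts the ratio was 1.42 (1.21 to 1.65), and without DASHed cell 4 it was 0.959.

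Whether a member was counted mostly repeated between the libraries of 1 cell number. Of the 24 pairs of a gene and a cell number, 15 had a count in both libraries of that number, 6 in neither, 0 in the DASHed library alone and 3 in the untreated library alone. As shares these were 62.5, 25, 0 and 12.5%, beside 62.1, 21.5, 2.53 and 13.9% over the 3221 genes in the same range of summed counts. A pattern of presence that repeats between treatments was thus common among genes of this abundance. The deviations of same-numbered single-cell libraries from their group means correlated at 0.916 to 0.928 over 7591 genes; libraries of 1 treatment share depth, and whether such libraries come from 1 cell is not stated.

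**Figure D3:**
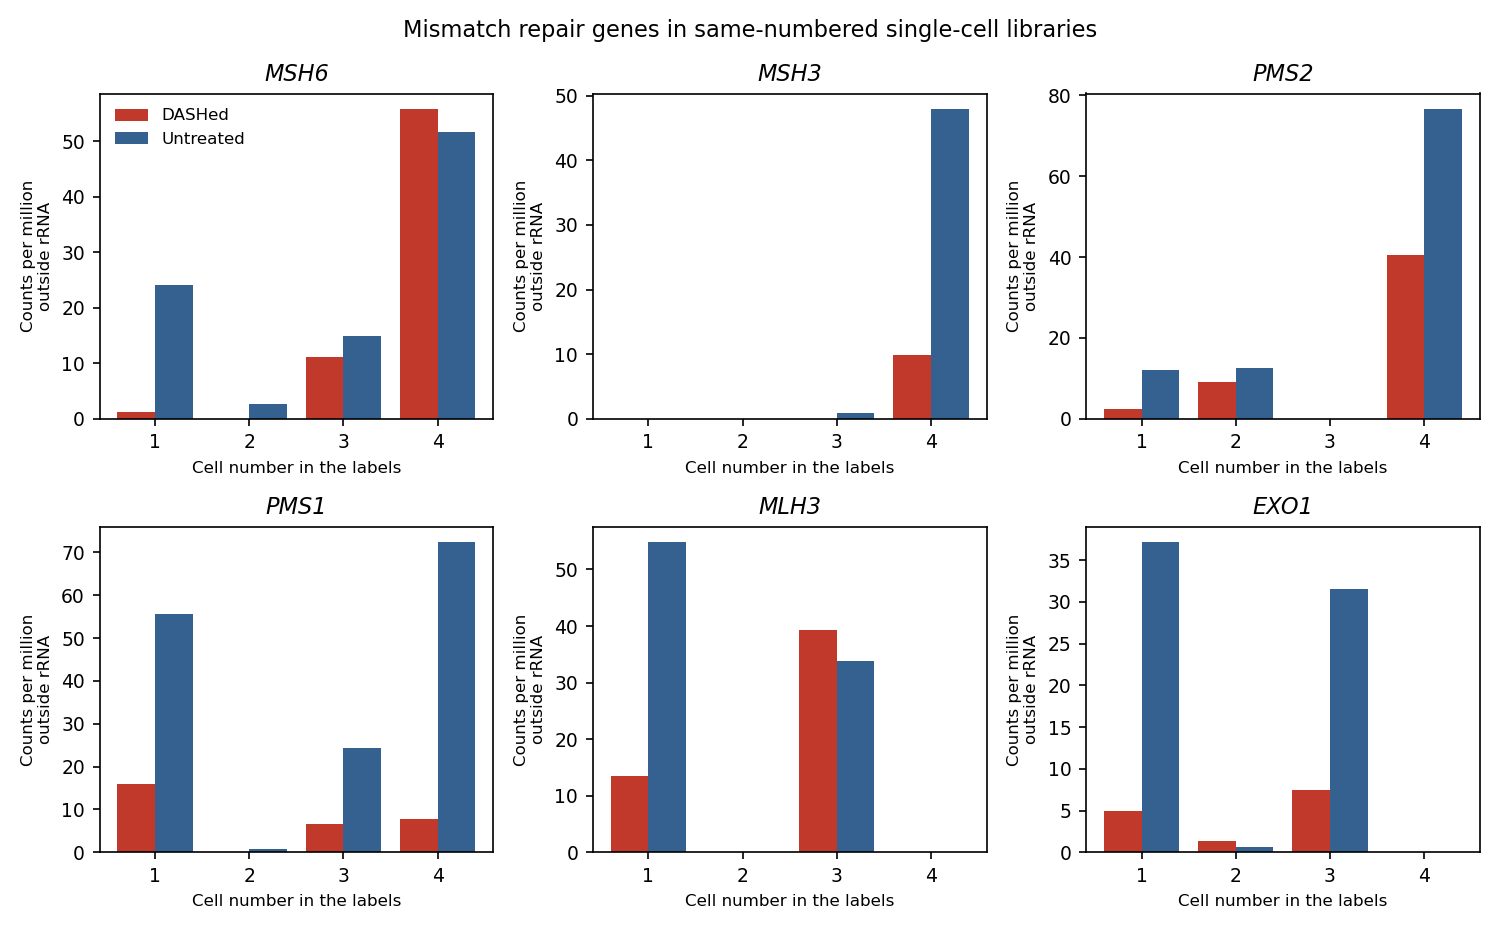
Level of each mismatch repair gene in CPM outside rRNA (vertical axis) in the DASHed (red) and untreated (blue) single-cell library of each cell number (horizontal axis). MSH3 and PMS2 peak in cell 4 under both treatments, MLH3 is seen in cells 1 and 3 alone, and EXO1 is highest in cells 1 and 3.

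MSH6 had 1.22, 0, 11.2 and 55.8 CPM outside rRNA in DASHed cells 1 to 4, against 24.1, 2.67, 15.0 and 51.7 in untreated cells 1 to 4. Cell 4 was highest under both treatments, with 81.8% of the DASHed and 55.3% of the untreated group's level. Genes of like summed counts had a median of 69.5% in their top cell in the DASHed group and 62.6% in the untreated group. The pooled ratio was 0.871 (counting interval 0.637 to 1.18), and without DASHed cell 4 the log2 ratio to the median gene was -1.46 in place of 0.08.

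MSH3 had 0, 0, 0 and 9.86 CPM outside rRNA in DASHed cells 1 to 4, against 0, 0, 0.879 and 47.9 in untreated cells 1 to 4. Nearly all of it stood in cell 4, which held 100% of the DASHed and 98.2% of the untreated level. Genes of like summed counts had a median of 74.9% in their top cell in the DASHed group (1192 genes) and 68.4% in the untreated group (1326 genes). The pooled ratio was 0.234 (counting interval 0.107 to 0.461), and it rests on 10 counts in DASHed and 59 counts in untreated cell 4.

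PMS2 had 2.45, 9.07, 0 and 40.4 CPM outside rRNA in DASHed cells 1 to 4, against 12.1, 12.6, 0 and 76.7 in untreated cells 1 to 4. Cell 4 was again highest and cell 3 had no count under either treatment. The pooled ratio was 0.547 (counting interval 0.385 to 0.766). Without DASHed cell 4 the log2 ratio to the median gene was -2.05, and without untreated cell 4 it was 0.58.

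PMS1 had 15.8, 0, 6.54 and 7.89 CPM outside rRNA in DASHed cells 1 to 4, against 55.6, 0.664, 24.4 and 72.3 in untreated cells 1 to 4. DASHed cells 1, 3 and 4 were below the untreated cells of their numbers. In cell 2, PMS1 had 0 counts in DASHed and 1 in untreated, under the floor of 3 counts, so that order is not resolved. The groups overlapped through cell 2. The pooled ratio of 0.217 (counting interval 0.141 to 0.325) was the lowest of the 6, but its interval overlapped those of EXO1 (0.226) and MSH3 (0.234). The log2 ratio of PMS1 to the median gene lay between -2.12 and -1.28 with any 1 cell left out.

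MLH3 had 13.5, 0, 39.2 and 0 CPM outside rRNA in DASHed cells 1 to 4, against 54.8, 0, 33.9 and 0 in untreated cells 1 to 4. It was counted in cells 1 and 3 and in neither cell 2 nor cell 4. The pooled ratio was 0.730 (counting interval 0.514 to 1.03), and the log2 ratio to the median gene was -1.50 without DASHed cell 3 and 0.46 without untreated cell 1.

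EXO1 had 4.90, 1.40, 7.47 and 0 CPM outside rRNA in DASHed cells 1 to 4, against 37.1, 0.664, 31.5 and 0 in untreated cells 1 to 4. Cells 1 and 3 were highest and cell 4 had no count under either treatment. The levels rest on only 4, 1, 8 and 0 counts in DASHed cells, against 40, 1, 40 and 0 in untreated ones. The pooled ratio was 0.226 (counting interval 0.115 to 0.408). EXO1 is known as a gene of the DNA replication phase, so genes of that phase are given beside it. The 90 histone genes summed to 22949, 1788, 1299 and 2282 CPM outside rRNA in DASHed cells 1 to 4, against 11888, 1007, 770 and 1207 in untreated cells 1 to 4. The 6 MCM helicase genes, which open replication origins, summed to 1678, 2387, 3802 and 1688 in DASHed cells, against 1306, 1657, 2980 and 1251 in untreated cells. Of the cells in which EXO1 was highest, cell 1 had the highest histone level and cell 3 the lowest under both treatments, while cell 3 had the highest MCM level and cell 1 the lowest of the DASHed and the second lowest of the untreated cells. Whether the cell cycle has a part in the EXO1 values was not tested.

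The number of members with at least 1 count was 6 in every mini-bulk library. It was 5, 2, 4 and 4 in DASHed cells 1 to 4, against 5, 4, 5 and 4 in untreated cells 1 to 4. Thinned to the smallest single-cell total, the expected numbers were 4.71, 2, 4.00 and 4.00 in DASHed cells and 4.91, 1.90, 4.14 and 4.00 in untreated cells. At equal total counts, rRNA included, the expected numbers of the treatments thus differed by under 1 gene in each cell number; the thinned untreated libraries then hold fewer counts outside rRNA. In mini-bulk thinned in the same way, the expected numbers were 5.75 and 6 in DASHed libraries and 5.16 and 4.93 in untreated libraries.

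Levels of different genes were compared per kilobase of the longest-coding transcript, in CPM outside rRNA per kilobase. In DASHed mini-bulk the order was PMS1 (6.92 ± 6.27), PMS2 (6.32 ± 6.51), EXO1 (3.60 ± 1.18), MSH6 (0.687 ± 0.243), MSH3 (0.449 ± 0.0307) and MLH3 (0.427 ± 0.259) (SD, n = 2). Of the neighbours in that order, EXO1 and MSH6 were apart and so were MSH6 and MSH3, while the other ranges overlapped. MSH6 rests there on 4 and 2 counts and MSH3 on 1.09 and 1, at or near the floor of 3 counts. The order of MSH6 and MSH3 is therefore not resolved. In untreated mini-bulk it was EXO1 (13.7 ± 5.04), PMS1 (12.6 ± 2.45), PMS2 (5.63 ± 1.06), MSH6 (5.13 ± 1.79), MLH3 (1.63 ± 1.26) and MSH3 (0.940 ± 0.299) (SD, n = 2). PMS1 and PMS2 were apart there, as were MSH6 and MLH3. In single cells the ranges of all neighbours overlapped, with means of 0.603 (MSH3) to 4.55 (PMS2) in DASHed and 2.81 (MLH3) to 11.9 (PMS1) in untreated cells (n = 4 each).

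The copies of PMS2 were followed because they share reads with it. PMS2CL had 10.6 and 18.5 counts in the DASHed mini-bulk libraries, against 17.3 and 20.4 in the untreated ones, with a log2 fold change of 0.29 (SE 0.55, adjusted p = 0.708, edgeR). In single cells PMS2CL had 13, 39.5, 4 and 9.0 counts in DASHed cells 1 to 4, against 6.1, 134.0, 6 and 16.6 in untreated cells 1 to 4. PMS2CL was thus highest in cell 2, with 65.9% of the DASHed and 78.8% of the untreated level. PMS2 was highest in cell 4, with 77.8% of the DASHed and 75.6% of the untreated level. Genes with summed counts like those of PMS2CL had a median top-cell share of 70.2% in DASHed and 59.4% in untreated cells. For genes with summed counts like those of PMS2 it was 72.9% in DASHed and 62.5% in untreated cells. PMS2P3 had 0, 2, 0 and 24.8 counts in DASHed cells 1 to 4, against 0, 14.3, 0 and 72.1 in untreated cells 1 to 4, and was highest in cell 4 like PMS2. PMS2P1 had 8.2 and 5.1 counts in DASHed and 16.8 and 18.6 in untreated mini-bulk. Of 15 copies listed, 11 were in the table, 2 were tested and 0 were called by edgeR.

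**Figure D4:**
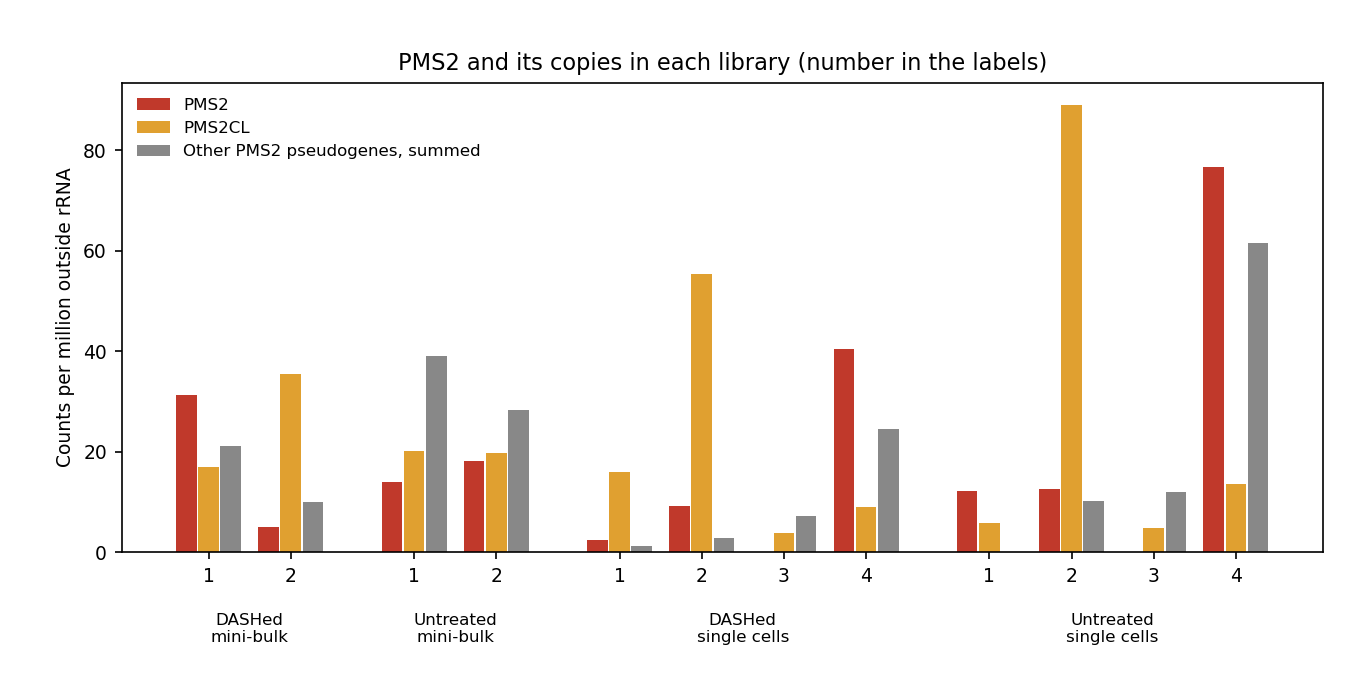
CPM outside rRNA (vertical axis) of PMS2, of PMS2CL and of the other PMS2 pseudogenes together in each library (horizontal axis, by group and library number). PMS2CL peaks in cell 2 and PMS2 in cell 4 under both treatments, and among the cells the other pseudogenes are also highest in cell 4.

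Of the meiotic MutS homologues, MSH5 was counted in every library and MSH4 in no cell. MSH5 had 126.8 and 97.1 counts in the DASHed mini-bulk libraries, against 176.0 and 173.7 in the untreated ones, and a log2 fold change of -0.05 (SE 0.21, adjusted p = 0.872, edgeR). It had at least 57.5 counts in every single cell, but 47.3% of its exonic bases overlap MSH5-SAPCD1, a readthrough gene, so its level is uncertain. MSH4 had 9 and 1 counts in DASHed and 11 and 8 in untreated mini-bulk, and 0 in all 8 single-cell libraries.

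PMS1 and PMS2 each share a head-to-head start with a neighbour on the other strand. The annotated starts lie 286 bases apart for PMS1 and ORMDL1, a regulator of sphingolipid synthesis, and 120 bases apart for PMS2 and AIMP2, a scaffold of tRNA synthetases. ORMDL1 had 17, 0, 0 and 5 counts in DASHed cells 1 to 4, against 35, 0, 0 and 30 in untreated cells 1 to 4, while PMS1 was also counted in cell 3 under both treatments. AIMP2, uncertain because 28.9% of its exonic bases overlap EIF2AK1, had 3.9, 0, 25 and 3.6 counts in DASHed cells 1 to 4, against 5.3, 0, 17 and 6.5 in untreated cells 1 to 4. AIMP2 was thus highest in cell 3, where PMS2 had no count. In mini-bulk the log2 fold change of AIMP2 was 0.41 (adjusted p = 0.522, edgeR), and ORMDL1 did not pass the filter.

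The genes listed for the later steps, excision, resynthesis and ligation, moved in both directions in mini-bulk. Of 17 such genes 14 were tested, 4 were called lower and 3 higher, against backgrounds of 19.8% and 9.9%, and their median log2 fold change was -0.39. RFC1, of the clamp loader, had 17.6 and 7 counts in DASHed and 54.1 and 87 in untreated mini-bulk, and fell by 1.88 on the log2 scale (SE 0.44, adjusted p = 0.0137, edgeR). The others that fell were POLD3, a subunit of DNA polymerase delta (-1.80, adjusted p = 0.0494), SSBP1, the mitochondrial single-strand binding protein (-1.65, 0.00834), and HMGB1, a chromatin protein that bends DNA (-1.26, 0.00392), all by edgeR. HMGB1 is uncertain, since 14.8% of its words also occur in other genes, most of them in HMGB1P5. LIG1, which seals the repaired strand, had 146 and 107 counts in DASHed and 103 and 95 in untreated mini-bulk, and rose by 0.94 on the log2 scale (SE 0.23, adjusted p = 0.0151, edgeR). POLD1 (0.92, adjusted p = 0.0312) and POLD2 (0.78, adjusted p = 0.0140), the catalytic and an accessory subunit of polymerase delta, also rose by edgeR; they were named after their values were seen. The 4 that fell had GC contents of 40.3 to 44.4% and the 3 that rose had 58.4 to 64.8%, and with the GC offset 0 of the 14 were called, where 3.25% of all tested genes were. Scaled to total counts alone, 9 of the 14 were called higher and 0 lower, near the 66.6% of all tested genes called higher on that scale. PCNA, the sliding clamp, had 32 and 17 counts in DASHed and 55 and 62 in untreated mini-bulk, with a log2 fold change of -0.66 (SE 0.37, adjusted p = 0.198, edgeR).

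The genes most like each member were found by the root mean square difference, over the 12 libraries, of log2(CPM outside rRNA + 1) after each gene's mean was taken off. For MSH6 they were ESD (0.619) and CHMP3 (0.655), where the median over 4672 genes of like level was 2.20. For PMS2 they were PPP3CC (0.751) and FBXO9 (0.850; median 2.51 over 4581 genes), and for PMS1 ZNF410 (0.591) and MASTL (0.612; median 2.21 over 4670 genes). For MLH3 they were MAP3K7 (0.428) and KIF11 (0.664; median 2.60 over 4025 genes), and for EXO1 ERCC6L (0.638) and HMBOX1 (0.692; median 2.33 over 4447 genes). None of these is another member. MSH3, with 79.3 counts in all, was under the minimum of 100 for this comparison. The 12 libraries share depth and rRNA content within each group, and nothing is drawn from these patterns.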

How the data were processed

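Total RNA of HCT116 was measured in 12 libraries, and the authors deposited 1 table of unscaled estimated counts for genes. It came from kallisto 0.46.2, per the submitters' processing notes. Build, annotation and strand handling: not given in the sources used here. Of 57134 genes, 57079 matched GENCODE v29 names (GRCh38), all 6 members among them. The members and gene lists were chosen with earlier results of these data known.

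Counts were rounded for tests. Counts outside rRNA leave out 551 rRNA genes and genes inside them. Mini-bulk genes were tested with edgeR 4.0.16 (R 4.3.3; quasi-likelihood, TMM, default filter, Benjamini-Hochberg over all tested genes, threshold 0.05), with DESeq2 1.42.0 as an alternative, after a check on simulated data. SE was taken from the F statistic. The GC offset was a lowess of log fold on GC content (10053 of 10083 tested genes). Single cells had no test between treatments: log2 ratios of summed CPM used a pseudocount of 1 and at least 20 counts, minus the median gene (2.20-fold). Intervals are exact at 95%. Thinned detection is an expectation. Named genes were the members, up to 5 called partners of largest fold, meiotic homologues, neighbours and PMS2 copies with counts, and the 2 nearest genes in pattern. A neighbour is not reported here.

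Same-numbered single-cell libraries deviated together (correlations 0.916 to 0.928), so their numbers were taken to pair them from the data. Mini-bulk numbers, with 2 pairs, were not.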

Additional observations from a re-analysis of the deposited data

Results flagged for a closer look

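3 values had a gap to the nearest other cell of their group, relative to the group's range, above Dixon's 95% critical value, among 14 groups of 4 cells examined (the 6 genes and their sum in each treatment). Chance gives about 1 in 20 for evenly measured values, but a gene counted in 1 of 4 cells passes whatever its level, so these are descriptions and not a test. MSH3 was 9.86 CPM outside rRNA in DASHed cell 4, with 0 in the other 3 DASHed cells. MSH3 was 47.9 in untreated cell 4, where the next highest untreated cell had 0.879. PMS2 was 76.7 in untreated cell 4, where the next highest untreated cell had 12.6.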

How the results depend on the processing

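In mini-bulk, 2997 genes were called (998 higher, 1999 lower). The number was 6856 with scaling to total counts alone (6718 higher, 138 lower), 5403 with the replicate block, 328 with the GC offset, 1696 with the GC offset and the replicate block, and 1417 to 3450 without 1 library. DESeq2 called 2015. The number of members called, 2 as reported, was 1 with scaling to total counts (PMS2, higher), 0 with the GC offset, 1 with the GC offset and the replicate block (MSH6), 1 with DESeq2 (MSH6), and 0 without untreated library 2 to 3 without DASHed library 2. With the replicate block it was 3, all lower, PMS1 being added (adjusted p = 0.0177, edgeR). That block called 3044 of the 10083 tested genes lower. All these settings but those without 1 library tested 4 members and 10083 genes. Same-numbered mini-bulk libraries deviated together at 0.453, from 2 pairs. Scaling to total counts shifts all genes by construction; for the other settings the cause was not tested. The summed share of the members, 1.46 in mini-bulk and 1.42 in single cells, was 0.397 and 0.473 outside rRNA. Without 1 library it was 1.17 to 1.93 in mini-bulk and 0.959 to 1.98 in single cells, the lowest being without DASHed cell 4. Single-cell genes past the fold numbered 4898 (1702 higher, 3196 lower), and 3946 to 7180 under the alternatives; the balance turned round over same-numbered cells (2397 higher, 1549 lower) and with at least 5 summed counts (4460 higher, 2720 lower). Of the alternatives, those on counts outside rRNA, without 1 cell and over same-numbered cells were chosen after seeing the data. DASHed mini-bulk libraries held 1 to 19.4 counts of each member, which limits the precision of every fold change given.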
